A study of Mus musculus with 4 samples.

Results

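The comparison is between Mettl3 knockout (KO) and wild-type (WT) mouse embryonic stem cells (ESCs) held in the naive state, measured as ribosome footprints on coding sequences. Its members are the autosomal genes whose mean normalised count over the 4 libraries of the series was at least 25. There were 9265 of them, out of 9670 genes past that filter and 20716 genes in the table. The other genes past the filter lay on the X (332), on the Y (4) or on no placed chromosome (69) and were left out. Just inside the filter were Shtn1 and Phf14, with means of 25.01 and 25.04, and just outside it Hoxc6 and Cela2a, at 24.93 and 24.90.

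Mettl3 is the enzyme subunit of the nuclear complex that places N6-methyladenosine (m6A) on mRNA, mostly at adenosines within a short consensus built around GGACT. The mark is best known for speeding mRNA decay, is read by YTH-domain proteins, and is dense in long internal exons and near stop codons while being sparse close to exon junctions. In naive ESCs, m6A has been studied because many pluripotency transcripts carry it. Ribosome profiling digests mRNA that ribosomes do not protect and sequences the protected footprints, so a gene's count follows both its mRNA amount and its ribosome density; no matched mRNA measurement is used here, and these 2 components cannot be told apart.

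Both ESC cultures were of the C57BL/6 strain and grew without serum in N2B27-based medium with LIF and with CHIR99021 and PD0325901, the inhibitors of GSK3 and MEK that are together called 2i. Embryoid bodies (EBs) of each genotype, aggregates that form in suspension and differentiate in serum-containing medium, gave the other 2 libraries; they grew for 8 to 21 days, and the labels do not give the day of each. Each of the 4 groups was 1 library, so the loss of Mettl3 and any other difference between the 2 lines, cultures or libraries cannot be told apart, and no p-value was computed for KO against WT ESCs. The labels give neither the altered stretch of Mettl3 nor the number of clones.

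Reads on genes numbered 8570204 in the WT and 11455539 in the KO ESC library, and the EB libraries held 4234361 (WT) and 4075850 (KO). After the authors' scaling 1 read was worth 0.778 in WT ESCs and 0.533 in KO ESCs. Values below are normalised counts, log2 folds are of KO + 1 over WT + 1, and bracketed ranges after a fold are 95% exact binomial intervals of the ratio of reads; they cover counting error only and say nothing of spread between cultures. Genes with several RefSeq entries lose shared reads as ambiguous: no read was found for 68.3% of the 3883 such genes in the table, against 21.9% of the 16833 with 1 entry. Of the compared genes, 8730 had 1 entry.

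Mettl3 itself (NM_019721, chromosome 14, 52294841 to 52308741 in GRCm38) stood at 563 in WT ESCs and 298 in KO ESCs, 1.89-fold lower (1.69 to 2.12). In EBs it stood at 429 in WT and 327 in KO. A sum over all coding exons would not reveal the removal of a short stretch, so the value is no check of the knockout, and the libraries keep the names of their labels.

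A gene is called higher or lower below when KO and WT were at least 2-fold apart, which is a rule of size and not a test. Of the 9265 genes, 985 (10.6%) were called higher in KO ESCs and 378 (4.08%) were called lower. The median log2 fold was 0.00, with quartiles at −0.36 and 0.46 and 5th and 95th percentiles at −0.91 and 1.48. The higher side of the distribution was the longer one. The counting interval excluded a ratio of 1 for 970 of the 985 and 373 of the 378. It lay wholly past 2-fold for 536 genes higher (5.79%) and 187 lower (2.02%). Scaling both libraries to the same total over genes raises the median log2 fold by 0.13, and the folds of low genes by less. Directions below are therefore relative to the authors' scaling. Counts called in the gene lists below are to be read beside the shares over all genes, 10.6% higher and 4.08% lower. In a short list, 0 called lower is near the latter share.

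**Figure D1:**
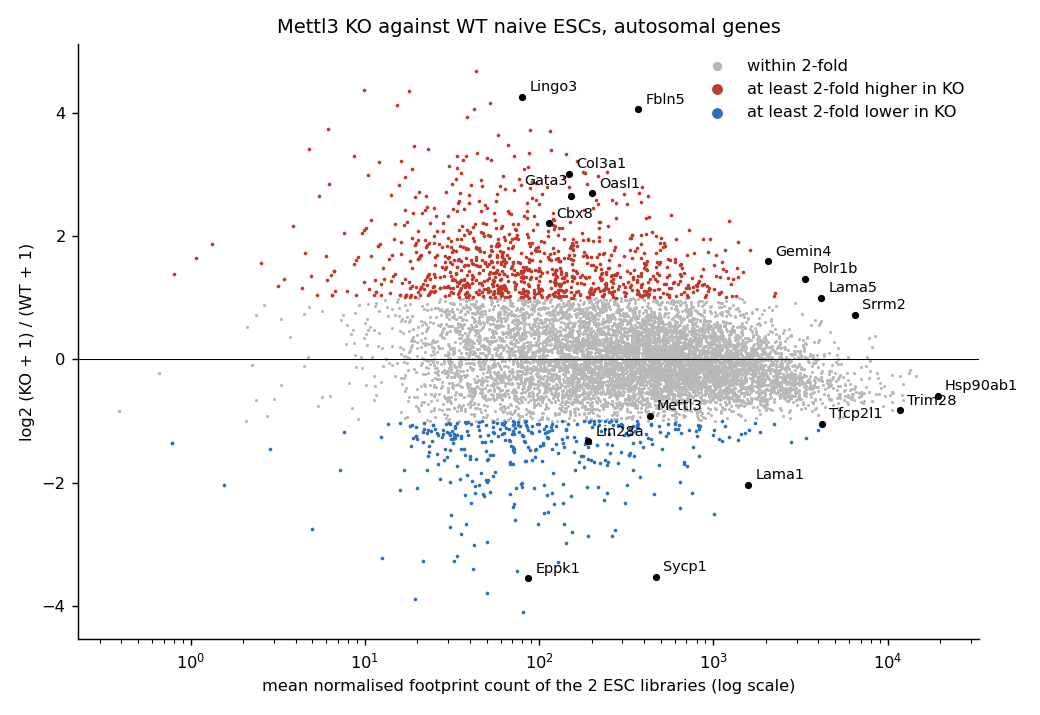
Each point is 1 autosomal gene, with the mean normalised footprint count of the 2 ESC libraries on the x axis (log scale) and the log2 of KO + 1 over WT + 1 on the y axis; red and blue mark genes at least 2-fold apart and black the labelled genes. The 985 red points outnumber the 378 blue ones, while the genes at the far right, such as Hsp90ab1 and Trim28, lie below 0.

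By absolute gain, the genes that stood furthest above WT were Srrm2, Polr1b, Lama5, Hspg2, Gemin4 and Myo10. Srrm2, a serine- and arginine-rich protein of the spliceosome, stood at 4899 in WT and 8106 in KO ESCs, 1.65-fold higher (1.61 to 1.70). Polr1b, the second-largest subunit of RNA polymerase I, which transcribes ribosomal RNA, stood at 1938 and 4796, 2.47-fold higher (2.37 to 2.59). Gemin4, a member of the SMN complex that assembles spliceosomal particles, stood at 1024 and 3088, 3.02-fold higher (2.84 to 3.21), with 22.1% of its coding windows copied elsewhere in the genome. The basement membrane proteins Lama5 (2765 and 5531) and Hspg2 (7323 and 9505) gained less in ratio, at 2.00-fold and 1.30-fold, and the unconventional myosin Myo10 stood at 6850.1 and 8704. In EBs Srrm2 went the other way, 7941 in WT against 5409 in KO, whereas Polr1b, Lama5, Hspg2, Gemin4 and Myo10 were again higher in the KO library.

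By absolute loss, the genes furthest below WT were Hsp90ab1, Trim28, Cltc, Asns, Atp5b and Slc2a3. Trim28, the corepressor that silences retroelements in ESCs, stood at 15017 in WT and 8474 in KO, that is 1.77-fold lower (1.74 to 1.81). Hsp90ab1, the constitutive cytosolic HSP90, stood at 23344 and 15476, 1.51-fold lower (1.48 to 1.53), with 26.7% of windows copied. The clathrin heavy chain Cltc stood at 14503 and 8329.7, 1.74-fold lower (1.70 to 1.78). Asparagine synthetase Asns, the ATP synthase subunit Atp5b and the glucose transporter Slc2a3 were 1.76-fold, 1.58-fold and 1.61-fold lower. None of these 6 reached 2-fold.

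These genes also differ in the architecture of their coding sequence: the longest coding exon of the 6 gains ran from 267 bases in Hspg2 to 6569 in Srrm2, and that of the 6 losses from 213 in Atp5b to 357 in Hsp90ab1. The following 60-base stretches, read on the mRNA strand from the GRCm38.p6 genome, come from the longest coding exon of 5 of them and were placed on a GGACT, shown in capitals; they were chosen to hold it and therefore show where it lies, not that it is methylated. Across the longest coding exons of all compared genes, 6.31% of 77462 windows of 60 bases held GGACT on that strand.
Srrm2, coding exon 9 of 13, 6569 bases long, chr17:23818281-23818340, plus strand: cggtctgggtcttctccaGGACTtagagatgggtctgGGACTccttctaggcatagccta
Gemin4, coding exon 2 of 2, 3167 bases long, chr11:76213535-76213594, minus strand: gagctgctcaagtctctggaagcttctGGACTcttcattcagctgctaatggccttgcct
Myo10, coding exon 25 of 41, 891 bases long, chr15:25781006-25781065, plus strand: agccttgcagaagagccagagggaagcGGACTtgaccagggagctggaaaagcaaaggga
Lama5, coding exon 1 of 79, 312 bases long, chr2:180225674-180225733, minus strand: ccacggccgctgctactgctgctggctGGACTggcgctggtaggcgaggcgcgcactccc
Atp5b, coding exon 8 of 10, 213 bases long, chr10:128088422-128088481, plus strand: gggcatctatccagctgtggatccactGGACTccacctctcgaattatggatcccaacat
The stretch of Srrm2 holds 2 copies of the motif, and its exon holds 6. For Hspg2 and Polr1b among the gains, and for Hsp90ab1, Trim28, Cltc, Asns and Slc2a3 among the losses, the longest coding exon held no GGACT. Over their whole coding sequence Hspg2 and Polr1b held 14 and 3 copies. Among those losses, Slc2a3 held 5, Asns 3, Trim28 and Cltc 2 each, and Hsp90ab1 0.

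By ratio, the 10 highest named genes that reached 100 in an ESC library were Lingo3, Irs3, Fbln5, Grrp1, Tmem266, Syt13, Foxi3, Inka1, Rab3il1 and Slit3. Their log2 folds ran from 3.34 to 4.26. Fbln5, a glycoprotein that organises elastic fibres, stood at 41.3 in WT and 702 in KO ESCs, a log2 fold of 4.06, and at 9.35 and 179 in EBs. Slit3, a secreted guidance ligand for Robo receptors, stood at 24.9 and 261, 10.5-fold higher (7.32 to 15.5). Foxi3, a forkhead factor of ectodermal placodes, stood at 10.1 and 123, and Irs3, an insulin receptor substrate of rodents, at 4.67 and 100.3. All 10 had at most 0.175% of their windows copied elsewhere. In EBs, 8 of these 10 were also higher in the KO library, while Foxi3 (161 in WT and 104 in KO) and Rab3il1 (377 and 261) were lower there.

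At the lower end the genes reported were Eppk1, Sycp1, Serpina3m, Pla2g1b, Clgn, Slc13a5, Stat4, Cdx1 and Slc25a31, with log2 folds from −3.55 to −2.78. Eppk1, the plakin epiplakin, stood at 160.3 in WT and 12.8 in KO, a log2 fold of −3.55, with 32.6% copied. Stat4, a transcription factor best known downstream of interleukin 12, stood at 335 and 44.8, 7.47-fold lower (5.90 to 9.55), and Slc13a5, the plasma membrane citrate transporter, at 464 and 62.4, 7.43-fold lower (6.09 to 9.14). Clgn, the testis chaperone calmegin, stood at 255 and 31.5. Cdx1, a homeobox target of Wnt signalling that CHIR99021 can induce, stood at 269 and 37.9, 7.11-fold lower (5.49 to 9.31), whereas in EBs it stood at 1.56 in WT and 22.4 in KO, from 1 and 15 reads. Sycp1 and Slc25a31 are germline genes described further on.

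**Figure D2:**
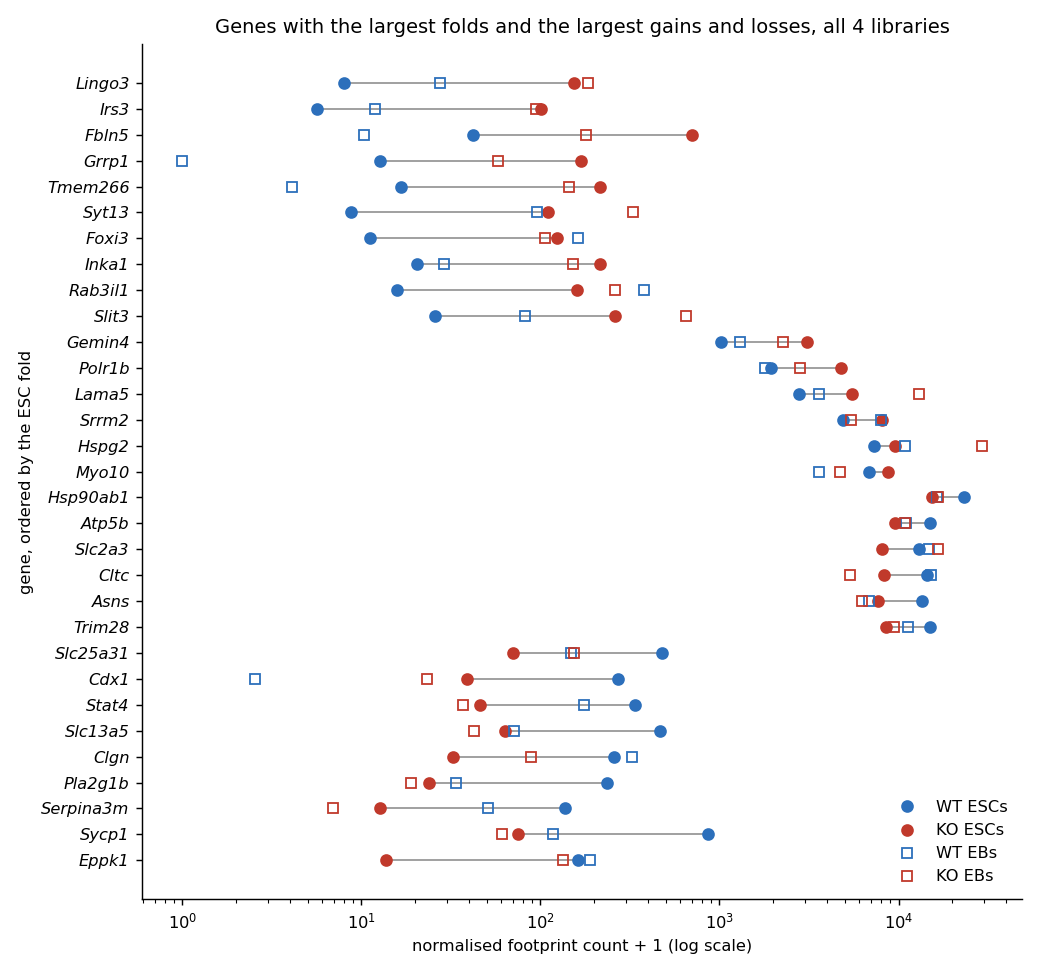
Normalised footprint count + 1 (x axis, log scale) of the genes with the largest folds, gains and losses in all 4 libraries, ordered by the ESC fold; filled circles are ESCs joined by a line, open squares EBs, blue WT and red KO. The upper genes have red circles to the right of blue ones and the lower genes the reverse, and the squares of Cdx1 run against its circles.

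Genes of the interstitial extracellular matrix stood higher in KO ESCs as a group. Of 26 listed autosomal genes 15 passed the filter, and of these 11 were called higher and 0 called lower, with a median log2 fold of 1.76 against 0.00 for all genes. Col1a1 and Col1a2, the chains of type I collagen, stood at 187 and 74.7 in WT and 954 and 452 in KO. Both stood higher by like ratios, 5.11-fold higher (4.46 to 5.87) and 6.05-fold higher (4.89 to 7.55). Col3a1 stood at 31.9 and 265, 8.29-fold higher (6.02 to 11.7), and the matricellular proteins Thbs1 and Thbs2 were 6.29-fold and 5.34-fold higher. The fibril-nucleating collagens Col5a1 and Col5a2 and the lysyl oxidase Loxl1 were 3.41-fold, 3.82-fold and 3.13-fold higher. The 2 lowest members were Sparc, a collagen-binding glycoprotein (5286 and 4081, log2 fold −0.37), and the collagen prolyl hydroxylase P4ha1 (−0.12).

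Elastic fibre genes showed a like shift, with 7 of 11 called higher, 0 lower and a median of 1.32. Besides Fbln5, the fibrillin Fbn2 stood at 81.7 in WT and 360.1 in KO, that is 4.41-fold higher (3.58 to 5.46), and the latent TGF-beta binding protein Ltbp2 at 14.0 and 83.8, 5.98-fold higher (3.66 to 10.3). Fbln1 and Ltbp4 had log2 folds of 0.05 and −0.43. Of 13 matrix proteases and inhibitors 6 were called higher and 0 lower, with a median of 0.94. They included the collagenase activator Mmp14 (354 and 1379, 3.90-fold higher (3.52 to 4.31)), its partner inhibitor Timp2 (4.18-fold) and the less abundant Mmp9 (10.9 and 63.5) and Mmp3 (4.67 and 36.3).

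Basement membrane genes split by chain instead of moving together: 3 of 15 were called higher, 2 called lower, and the median was 0.18, or −0.06 over members whose 4-library mean reached 100. Among laminin alpha chains, which decide the receptor a laminin binds, Lama1 stood at 2541 in WT and 619 in KO, that is 4.10-fold lower (3.84 to 4.39). Lama3 stood at 1234 and 275, 4.49-fold lower (4.07 to 4.97). Lama4 went the other way, 53.7 and 178, 3.31-fold higher (2.55 to 4.35), as did Lama5, given above. The type IV collagen chains Col4a1 and Col4a2 were 2.10-fold and 3.09-fold higher in KO ESCs, while in EBs they were lower in KO, by 4.33-fold and 3.40-fold. Of 16 genes of integrins and focal adhesions 3 (18.8%, against 10.6% of all genes) were called higher and 0 lower, with a median of 0.30. The 3 were the laminin-binding Itga7 (2.56-fold), the adaptor Parva (2.49-fold) and the collagen-binding Itga1 (2.15-fold).

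Markers of fibroblasts, cells used as feeders in some ESC cultures, moved with these matrix groups. The summed normalised count of the 14 listed markers was 445 in WT and 2134 in KO ESCs, 4.79-fold higher, and 9 of the 14 were higher in KO. Most of the sum was collagen, and Col1a1, Col1a2, Col3a1 and Loxl1 stand in the matrix list as well. Outside the collagens, Thy1 stood at 87.2 and 238, and Lum at 2.33 and 28.8. The mesenchymal transcription factor Prrx1 stood at 0.778 and 0.533, 1 read in each library, but has 3 RefSeq entries. The related factor Twist2 had 3 reads in WT and 15 in KO, and the matrix Gla protein Mgp 5 and 26, both with 1 entry. Col6a3, Pdgfrb, Dcn and Postn had no read in either ESC library, but each also has several entries, so a lack of reads does not show a lack of footprints. The part of other cells in the matrix result was not tested, and more cells of a type and more footprints per cell cannot be told apart in such bulk libraries.

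Mesenchymal transition genes had a median of 0.65, with 5 of 12 called higher and 0 lower; over members whose 4-library mean reached 100 it was 0.25. The higher members were the transcription factors Snai1 (34.2 in WT and 150.4 in KO, that is 4.39-fold higher (3.19 to 6.18)), Snai2 (2.30-fold) and Twist1 (3.24-fold), the cadherin Cdh11 and the calcium-binding S100a4. Vim, Lgals1, Cdh2 and S100a6, structural or cytoplasmic proteins of such cells, stayed between −0.24 and −0.08. Targets of YAP and of SRF, the regulators that respond to cell tension, had a median of 0.85, with 7 of 15 called higher and 0 lower. Ccn1 stood at 373 and 986, 2.65-fold higher (2.39 to 2.93), and smooth-muscle actin Acta2 at 153 and 397, 2.59-fold higher (2.21 to 3.04), while Ccn2 and Actn1 had log2 folds of −0.15 and −0.80. In EBs the same list had a median of −0.75.

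Of the listed BMP and TGF-beta genes 7 of 17 were called higher and 0 lower, with a median of 0.47. That median was 0.14 when the mean of the 2 ESC libraries had to reach 25, a filter that Nog and Grem1 do not pass, and 0.06 when that of all 4 had to reach 100. Among ligands, Bmp7 stood at 259 and 686, 2.65-fold higher (2.34 to 2.99), and Tgfb2 at 9.34 and 46.9, 5.03-fold higher (2.74 to 10.1), whereas Tgfb1 was 1.79-fold lower (1.36 to 2.36). The receptors Bmpr1a and Bmpr2 had log2 folds of 0.14 and −0.19. Secreted or membrane antagonists were higher: Nog (3.11 and 30.9), Grem1 (6.23 and 14.9) and Bambi (249 and 509). The target genes Id1, Id2 and Id3 were apart from each other, at −0.52, 1.50 and −0.02. In the Nodal pathway Nodal itself stood at 1776 and 1753. Its antagonist Lefty2 was 2.69-fold lower (2.38 to 3.04), its coreceptor Tdgf1 2.04-fold lower (1.85 to 2.24), and the effector Smad3 2.47-fold higher (2.10 to 2.90). The related Lefty1 went the other way, 73.9 and 111, 1.50-fold higher (1.17 to 1.93). Of the windows, 42.0% are copied in each of Lefty1 and Lefty2 and 66.8% in Tdgf1.

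Naive pluripotency genes stood lower in KO ESCs. Of 16 past the filter 0 were called higher and 5 called lower, 13 lay below 0, and the median was −0.58. Their median mean count was 1771 and their median longest coding exon 371 bases. Among genes with a mean count of at least 1000 and a longest coding exon of 200 to 400 bases, 23.7% lay above 0. Of that class 1.33% were called lower, and its median was −0.27. Tfcp2l1, a transcription factor central to the naive state, stood at 5653 in WT and 2741 in KO, that is 2.06-fold lower (1.99 to 2.14), and Klf5 at 4836 and 1998, 2.42-fold lower (2.32 to 2.52). Dppa3, Dppa5a and Tdgf1 completed the 5, and between 66.8% and 81.2% of their windows are copied elsewhere. Klf2 and Gbx2 were the highest members, 1.54-fold higher (1.49 to 1.60) and 1.51-fold higher (1.25 to 1.82). Over the 9 members with under 10% of windows copied the median was −0.48.

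Core pluripotency factors were lower by less. Pou5f1 (Oct4) stood at 2860.4 and 1914, 1.49-fold lower (1.43 to 1.57), Sox2 at 3859 and 2856, 1.35-fold lower (1.30 to 1.40), and Nanog at 6105 and 4514, 1.35-fold lower (1.31 to 1.39). Of the 14 in that list 1 was called lower, Lin28a (274 and 109, 2.52-fold lower (2.11 to 3.01)), 0 were called higher, and the median was −0.43. Utf1 and Mycn stood on the other side, 1.77-fold higher (1.67 to 1.88) and 1.54-fold higher (1.46 to 1.62). The 12 markers fixed to check the cell type summed to 27526 in WT and 18104 in KO ESCs, so both libraries carried most of these defining genes of ESCs. Of the 12, 2, Tbx3 and Sall4, had no read in either and several entries. Esrrb, with 2 entries, had only 1 read in WT and 18 in KO. Formative and primed genes had a median of −0.02, with Sox4 (2.74-fold) called higher and 0 of 11 called lower; scaling to the same total puts this median above 0.

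Lineage genes did not move as 1 block. Of 9 trophoblast regulators 4 were called higher and 0 lower (median 0.77), led by Gata3 (41.3 and 265) and Ascl2 (24.9 and 158), but Cdx2, which specifies trophoblast, stood at 3.89 and 5.33. Eomes, Elf5, Tpbpa and Prl3d1 had no read in either ESC library, and all but Tpbpa have several entries. Only 5 of 19 mesoderm genes passed the filter, 3 of them called higher (Snai1, Hand1 and Twist1); Snai1 and Twist1 are also in the mesenchymal list, and Hand1 and Krt7 count among the trophoblast regulators called higher. Primitive endoderm markers summed to 132 in WT and 125 in KO, and of 19 primitive and visceral endoderm genes 6 were called higher and 3 lower, with a median of 0.04. Among these, Hnf4a, a nuclear receptor of endoderm, stood at 6.23 and 61.3, 9.85-fold higher (4.84 to 23.4), and the endocytic receptor Cubn at 39.7 and 3.20, 12.4-fold lower (5.32 to 35.4). The mean ESC count of these 19 genes had a median of 23.5, under the filter of 25, so many passed through their EB counts. Ttr, counted as higher, rested on 0 reads in WT and 4 in KO ESCs. Neural markers summed to 1838 and 1908.

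Epithelial junction and keratin genes lay on both sides of 0. The tight-junction claudins Cldn3 (77.8 and 369, 4.74-fold higher (3.84 to 5.90)) and Cldn4 (2.53-fold) and the simple-epithelial keratins Krt7, Krt8, Krt18 and Krt19 (2.20-fold to 3.26-fold) were the 6 of 20 called higher. Lower were the splicing regulator Esrp1 (49.8 and 11.7, 4.24-fold lower (2.58 to 7.24)), the adhesion molecule Epcam (1526 and 620.4, 2.46-fold lower (2.29 to 2.65)) and desmoplakin, Dsp (2.23-fold lower (2.04 to 2.43)). E-cadherin, Cdh1, stood at 7498 and 7729. Of Krt8 windows 72.7% are copied elsewhere.

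Germline and meiosis genes, many of which ESCs keep repressed by promoter DNA methylation and by a variant polycomb complex, held a subset that was far lower in KO ESCs. Of 22 past the filter 7 were called lower and 2 called higher, with a median of −0.25. Sycp1, a protein of the synaptonemal complex that joins paired chromosomes, stood at 860.1 in WT and 73.6 in KO, that is 11.7-fold lower (9.78 to 14.0), with 20.4% of its windows copied. Slc25a31, the testis ADP/ATP carrier, stood at 477 and 68.8, 6.93-fold lower (5.73 to 8.45), and the piRNA factor Mael at 230.4 and 44.8, 5.14-fold lower (4.02 to 6.63). The meiotic cohesin Smc1b was 4.52-fold lower (3.79 to 5.41), Asz1 3.13-fold lower (2.61 to 3.76), Stk31 2.75-fold lower (2.47 to 3.07) and Sycp3 2.41-fold lower (1.99 to 2.93). Other members stayed nearer to equal, among them the meiotic gatekeeper Stra8 (929 and 929.8), the cohesin Stag3 (776 and 917) and Piwil2 (722 and 953). In EBs the 7 lay between −3.46 and 0.05 on the log2 scale.

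The promoters of germline genes are known for the E-box CACGTG, which the Max-Mga pair of that polycomb complex binds. The 250 bases before the RefSeq start of the 3 lowest genes with a match are printed because each holds 1 copy, in capitals (GRCm38.p6, 5′ to 3′ on the gene's strand).
Sycp1, chr3:102936101-102936350, minus strand: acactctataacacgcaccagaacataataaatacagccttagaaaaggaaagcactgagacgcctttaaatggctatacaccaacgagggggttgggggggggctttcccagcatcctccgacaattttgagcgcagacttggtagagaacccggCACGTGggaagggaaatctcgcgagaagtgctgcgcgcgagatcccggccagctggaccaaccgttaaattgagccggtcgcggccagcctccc
Slc25a31, chr3:40708621-40708870, plus strand: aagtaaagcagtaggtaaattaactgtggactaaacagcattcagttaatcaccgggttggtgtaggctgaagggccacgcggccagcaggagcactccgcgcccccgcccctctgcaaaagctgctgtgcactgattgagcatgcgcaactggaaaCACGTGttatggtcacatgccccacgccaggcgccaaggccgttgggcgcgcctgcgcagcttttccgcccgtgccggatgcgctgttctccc
Mael, chr1:166238745-166238994, minus strand: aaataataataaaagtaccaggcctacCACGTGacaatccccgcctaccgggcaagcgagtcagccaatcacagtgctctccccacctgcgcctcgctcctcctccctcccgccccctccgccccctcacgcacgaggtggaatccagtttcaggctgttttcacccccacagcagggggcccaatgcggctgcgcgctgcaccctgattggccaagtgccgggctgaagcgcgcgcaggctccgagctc
The copy begins 94 bases before the start in Sycp1, 93 in Slc25a31 and 223 in Mael. CACGTG, which reads the same on both strands, occurred in the 300-base promoter window (250 before to 50 after the start) of 10 of the 20 germline genes with an entry and of 10.7% of the 7416 compared genes with one. It was in 5 of the 7 genes called lower (the 3 shown, Sycp3 and Stk31) and in 5 of the other 13, among them Stag3 and Tdrd9 on the higher side. The E2F6 motif GCGGGAA, on either strand, occurred in 6 of the 20 and in 9.29% of all, and in 3 of the 7. The motifs were chosen after the values were seen, and a match is a description only.

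In the polycomb list 3 of 21 (14.3%, against 10.6% of all genes) were called higher and 0 lower. The median was −0.20, and 0.07 over members whose 4-library mean reached 100. Cbx8 stood at 39.7 and 187, 4.70-fold higher (3.50 to 6.44), and Ring1 was 2.23-fold higher (1.87 to 2.69). Cbx7, the chromobox chain that prevails in ESCs, stood at 373 and 225, 1.66-fold lower (1.45 to 1.89), and Cbx2 had a log2 fold of 0.75. The PRC2 core subunit Eed was 1.66-fold lower (1.58 to 1.75). The SWI/SNF and trithorax list had a median of −0.33 with 0 of 18 past 2-fold in either direction, and its highest member was Arid1b (1.99-fold); over members with under 10% of windows copied the median was −0.21. The retroelement silencing list had a median of −0.32, with 1 of 12 called lower, Sumo2, whose coding windows all have a copy elsewhere. That median was −0.09 under the same copy limit, and also when the mean of the 2 ESC libraries, in place of all 4, had to reach 25. The 18 histone genes past the filter had a median of −0.39, with 17 below 0 and 0 past 2-fold; only 3 of them had under 10% of windows copied, with a median of −0.66.

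Most listed genes of cytosolic protein synthesis, folding and turnover lay below 0, as against 4619 of all 9265 genes. Of all genes with a mean count of at least 1000 and a longest coding exon under 200 bases, only 14.7% lay above 0. All but 1 of the 14 cytosolic tRNA synthetases lay below 0 (median −0.59). So did 19 of 21 chaperonins and heat shock proteins (median −0.59), 36 of 44 proteasome genes (−0.45), 30 of 32 translation factors (−0.40) and 65 of 68 respiratory chain genes (−0.34). The 8 subunits of the cytosolic chaperonin TRiC were each lower, from 1.42-fold (Tcp1) to 1.79-fold (Cct8, 8535 and 4760.4), whereas the cochaperone Dnajb1 stood 1.52-fold higher (1.42 to 1.62). The constitutive Hspa8 and the small heat shock protein Hspb1 were the 2 called lower, but 97.1% and 89.4% of their windows are copied elsewhere. In the proteasome list the immunoproteasome subunits Psmb8 and Psmb9 stood apart at 1.73 and 0.82, from values of 1.56 and 24.1 in WT. The 72 mitochondrial ribosomal proteins did not share the shift: 36 lay above and 36 below 0, with a median of 0.00, and Mrpl46 (2.20-fold higher) was the 1 past 2-fold. Their median mean count was lower, 715, and their median longest coding exon 208 bases. Among genes with a mean count of 300 to 1000 and a longest coding exon of 200 to 400 bases, 47.0% lay above 0. The median of that class was −0.02.

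Cytoplasmic ribosomal proteins had the lowest median of the 51 lists, −0.61, with 54 of 56 below 0 and 10 called lower. Their coding sequences have many processed copies in the genome, and only 1 of the 56 had under 10% of windows copied, so these values rest on the few footprints with a unique place. The share of reads without a unique place was 55.7% in WT and 48.4% in KO ESCs, and its part in this median was not tested. In EBs the list stood at 0.55. Polymerase I subunit Polr1b, described above, was the 1 of 34 ribosome biogenesis genes past 2-fold, in a list whose median was −0.33.

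**Figure D3:**
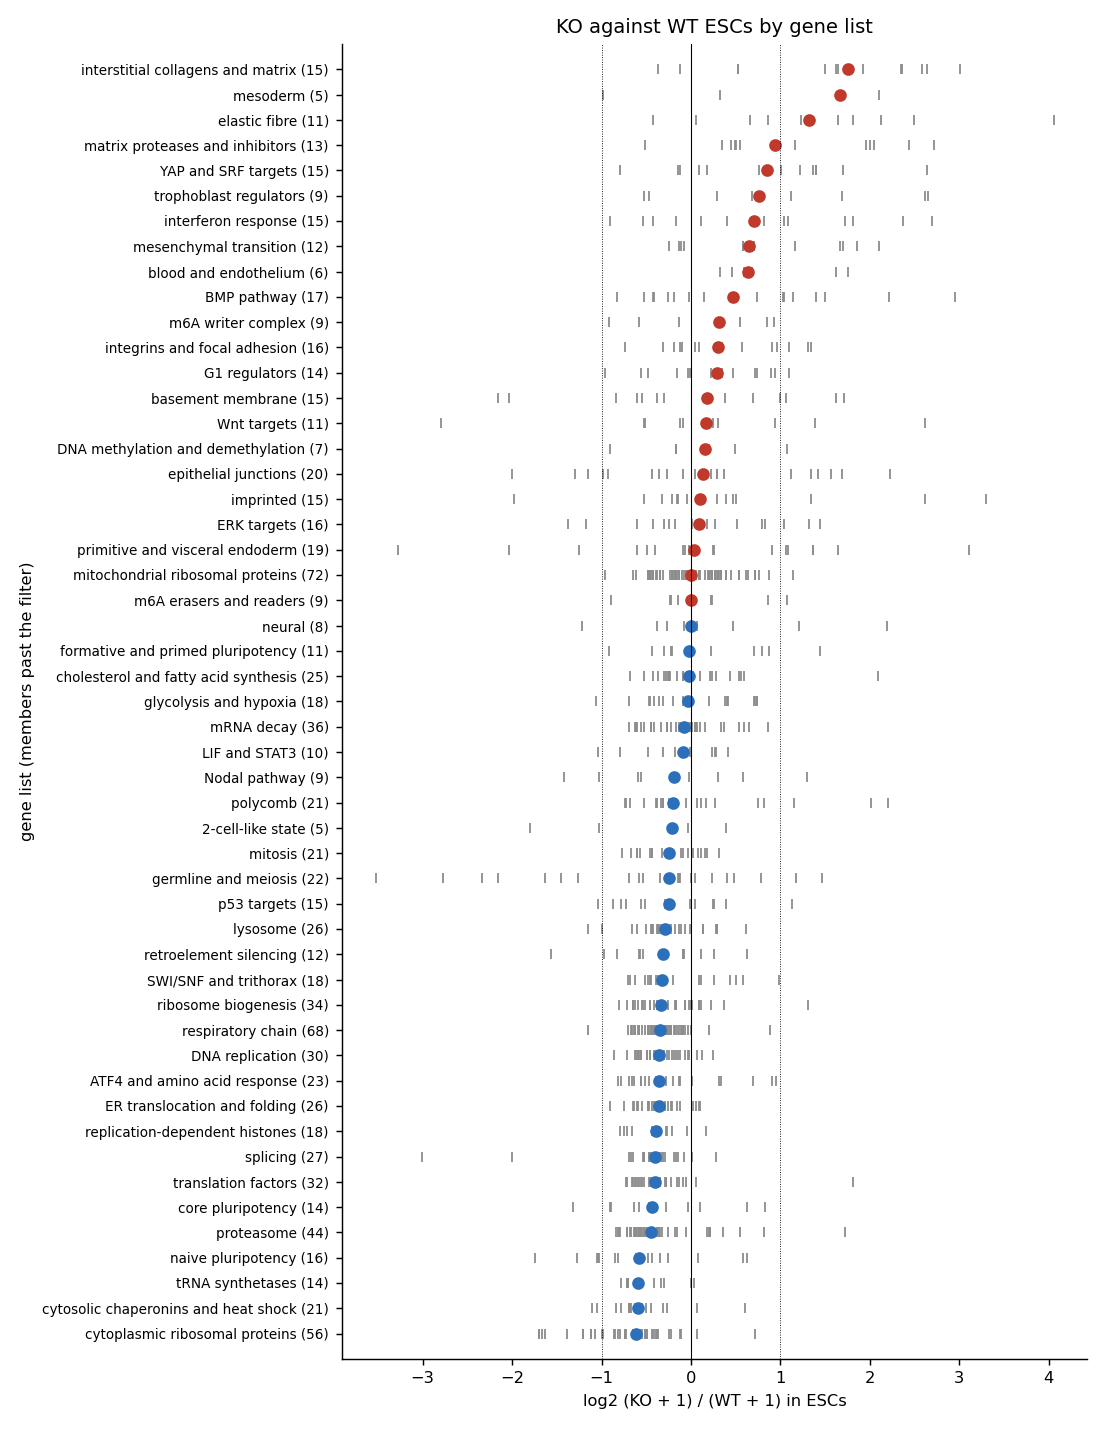
Each tick is a gene of the list named at the left (with its number past the filter), placed by its log2 fold in ESCs, and each dot is the list's median, red above and blue below 0; dotted lines mark 2-fold. Matrix, mesoderm and YAP or SRF lists stand at the top and ribosomal protein, chaperone, tRNA synthetase and naive pluripotency lists at the bottom.

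The listed ATF4 targets and amino acid genes, which cells raise when amino acids run short, had a median of −0.36, with 17 of 23 below 0 and 0 past 2-fold. Atf4 stood at 2462 and 1435, 1.72-fold lower (1.63 to 1.81), and its target Asns at 13545 and 7703. Aldh1l2 and Cebpb were the highest, 1.88-fold and 1.93-fold. The ATF4 composite element TGATGNAA, on either strand, lay in 5 of the 20 promoters with an entry (Trib3, Asns, Chac1, Slc7a11 and Nupr1) against 2.16% of all. These 5 genes had log2 folds from −0.81 to −0.13. Those without it lay on both sides of 0, from −0.78 (Atf4) and −0.66 (Psat1) to 0.70 (Cebpg) and 0.95 (Cebpb). A match is a description only, and its part in these folds was not tested. In EBs the list stood at 0.86.

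Interferon response genes had a median of 0.71, with 6 of 15 called higher and 0 lower. The 6 were Oasl1 (52.9 and 348, 6.58-fold higher (5.12 to 8.58)) and Oas2 (21.0 and 113, 5.38-fold higher (3.60 to 8.36)) of the oligoadenylate synthetase family, Oasl2, the class I antigen H2-K1 (161 and 568, 33.8% copied), the tetherin Bst2 (458 and 944) and Psmb8. Psmb8 rested on 2 reads in WT and 14 in KO ESCs, a ratio with an interval of 1.10 to 43.5. The RNA sensor Ddx58 (RIG-I) was the lowest, 342 and 182, 1.88-fold lower (1.63 to 2.17). Oas1a, also of the oligoadenylate synthetase family, stood at 248 and 171, 1.45-fold lower (1.24 to 1.70), with 63.4% of its windows copied. Of the 30 listed genes the other 15 did not pass the filter.

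The other m6A factors lay on both sides of 0. Of 9 writer complex genes 6 were above 0 and 0 past 2-fold. Mettl14, the partner of Mettl3 in the catalytic heterodimer, stood at 532 and 483, 1.10-fold lower (0.996 to 1.22). The regulatory subunits Wtap and Rbm15 were 1.81-fold higher (1.68 to 1.95) and 1.90-fold higher (1.78 to 2.02), and Virma and Zc3h13 1.23-fold and 1.46-fold higher; 47.9% of the Wtap windows are copied. Pcif1, which methylates the cap-adjacent adenosine, was 1.50-fold lower (1.33 to 1.70). Among readers the nuclear Ythdc1 stood at 1452 and 3067, 2.11-fold higher (2.00 to 2.23), the decay-promoting Ythdf2 at 1628 and 2955, 1.81-fold higher (1.73 to 1.91), and Igf2bp3 was 1.86-fold lower (1.75 to 1.98). The erasers Fto and Alkbh5 had log2 folds of 0.23 and 0.00.

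Cell cycle lists had medians on both sides of 0. All 30 DNA replication genes lay within 2-fold, 27 of them below 0, with a median of −0.35. Their median mean count was 1396 and their median longest coding exon 195 bases. Among all genes with a mean count of at least 1000 and a longest coding exon under 200 bases, 14.7% lay above 0. The median of that class was also −0.35. The 14 G1 regulators had a median of 0.29, with Cdk6 (2.14-fold higher (1.83 to 2.52)) the 1 called higher. Cyclin D1, Ccnd1, stood at 805 and 1544, 1.92-fold higher (1.79 to 2.06), and the retinoblastoma gene Rb1 at 324 and 165, 1.96-fold lower (1.69 to 2.28). Among 15 genes that are p53 or its targets, Gdf15 was the 1 called higher (2.19-fold higher (1.94 to 2.48)) and Trp53 the 1 called lower (221 and 107, 2.07-fold lower (1.72 to 2.50)), and the median was −0.25. Each is 6.67% of the list, against 10.6% higher and 4.08% lower over all genes. Trp53 has 2 RefSeq entries, and 35.8% of its windows are copied elsewhere. Of mitotic genes, 15 of 21 lay below 0 and 0 were past 2-fold. Their median mean count was 1907 and their median longest coding exon 244 bases. Among genes with a mean count of at least 1000 and a longest coding exon of 200 to 400 bases, 23.7% lay above 0. Of 16 ERK targets, a pathway PD0325901 inhibits, 3 were called higher (Ier3, Dusp4 and Fosl1) and 2 lower, Spry2 (2.60-fold lower (2.32 to 2.92)) and Egr1, which rests on 14 and 8 reads and whose interval includes a ratio of 1.

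Among Wnt targets, which CHIR99021 activates, Axin2 and Notum were 1.43-fold and 1.44-fold lower beside Cdx1, while Ascl2 and Nkd2 were 6.34-fold and 2.71-fold higher. Imprinted genes, expressed from 1 parental allele, also lay on both sides: 3 of 15 were called higher and 1 lower. Plagl1, a zinc finger factor, stood at 1033 and 260.3, 3.97-fold lower (3.57 to 4.41), and Phlda2 at 209 and 533, 2.55-fold higher (2.22 to 2.93). Igf2, the embryonic growth factor, a gene with 3 RefSeq entries, had 1 read in WT and 31 in KO ESCs, a ratio of 21.2 with an interval of 3.54 to 866.

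In the neural list the growth cone protein Gap43 (17.1 and 81.6) and the Notch ligand Dll1 (2.42-fold) were called higher, and the microtubule regulator Stmn2 stood at 2006 and 861, 2.33-fold lower (2.19 to 2.48). In the glycolysis and hypoxia list the platelet-type phosphofructokinase Pfkp stood at 5581 and 2674, 2.09-fold lower (2.01 to 2.16). In the splicing list 25 of 27 lay below 0 (median −0.40), and 2 were called lower, Esrp1 and Rbfox2, the latter with 9 RefSeq entries and only 97 and 16 reads. Among genes with a mean count of at least 1000 and a longest coding exon of 200 to 400 bases, 23.7% lay above 0. The splicing list had medians of 1452 for the mean count and 225 bases for the longest coding exon. Of 36 mRNA decay genes, the machinery through which m6A is known to act, 0 were past 2-fold, from Zfp36l1 at −0.69 to Tob1 at 0.86. Of 7 DNA methylation and demethylation genes 1 was called higher, the dioxygenase Tet3 (82.5 and 174). All 26 genes of ER translocation and folding were within 2-fold, with 22 below 0 and a median of −0.36. Their median mean count was 2546 and their median longest coding exon 196.5 bases. Genes with a mean count of at least 1000 and a longest coding exon under 200 bases had a median of −0.35, with 14.7% above 0.

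The ratio of KO to WT varied with the form of the coding sequence, which the choice of genes did not use. Spearman's rho with the log2 fold, over 9263 genes with a coding model and given as a description, was 0.29 for GC content, −0.27 for exon junctions per kilobase of coding sequence and 0.24 for the length of the longest coding exon. It was −0.22 for the mean ESC count, 0.08 for GGACT per kilobase and 0.04 for coding length. These points share the same 2 libraries, and the features are tied to each other: GC content had a rho of −0.29 with junction density and 0.19 with longest exon. In EBs the rho with GC content was larger, 0.52, and that with longest exon smaller, 0.10.

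With the genes cut into 5 bins of equal size, from the shortest to the longest by longest coding exon, the median log2 fold was −0.17, −0.13, −0.01, 0.21 and 0.22, and the share called higher went from 4.43% to 16.5%. The relation was also seen inside bins of similar count, where rho was 0.09 in the lowest and 0.39 in the highest, and inside bins of GC content, where it lay between 0.15 and 0.25. By GC content the same medians ran from −0.23 in the lowest bin to 0.32 in the highest. By mean count they ran from 0.28 to −0.21, and by GGACT density only from −0.09 to 0.06. Among genes with a mean count of at least 1000, the median was −0.35 for a longest coding exon under 200 bases, −0.27 for 200 up to 400, 0.02 for 400 up to 1000 and 0.17 for 1000 or more.

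Genes whose coding sequence lies in a single exon have no junction within it. Of 479 such genes, 105 (21.9%) were called higher and 30 (6.26%) lower, with a median of 0.26, against −0.01 for the 8784 with more. Over the 363 with under 10% of windows copied the median was 0.43, with 27.8% called higher. The 479 were also richer in GC (median 59.4% against 53.2%) and had lower counts (median 177 against 333). The part of base composition and count in the exon relation was not tested beyond the bins above.

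**Figure D4:**
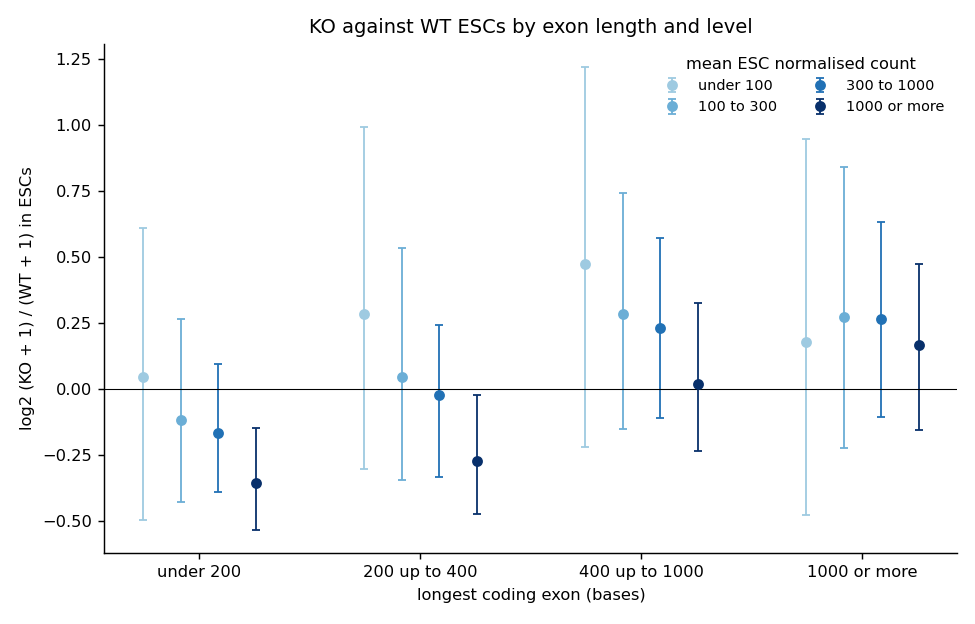
Median log2 fold in ESCs (points) with quartiles (bars) by the length of the longest coding exon (x axis) and by the mean normalised count of the 2 ESC libraries (shade). Within each shade the points rise from exons under 200 bases to those of 400 up to 1000 bases; in the darkest shade they go from −0.35 to 0.02 and on to 0.17 for the longest exons.

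By chromosome, the median log2 fold of the 19 autosomes ran from −0.18 on chromosome 13 to 0.23 on chromosome 5, and 10 of the 19 lay below 0; scaling to the same total turns 8 of these above 0. The share of genes called higher ran from 5.41% on chromosome 13 to 15.1% on chromosome 5. Across the 19, the median had a Spearman's rho of 0.53 with the median GC content of the chromosome's genes, as a description over points that share the 2 libraries.

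**Figure D5:**
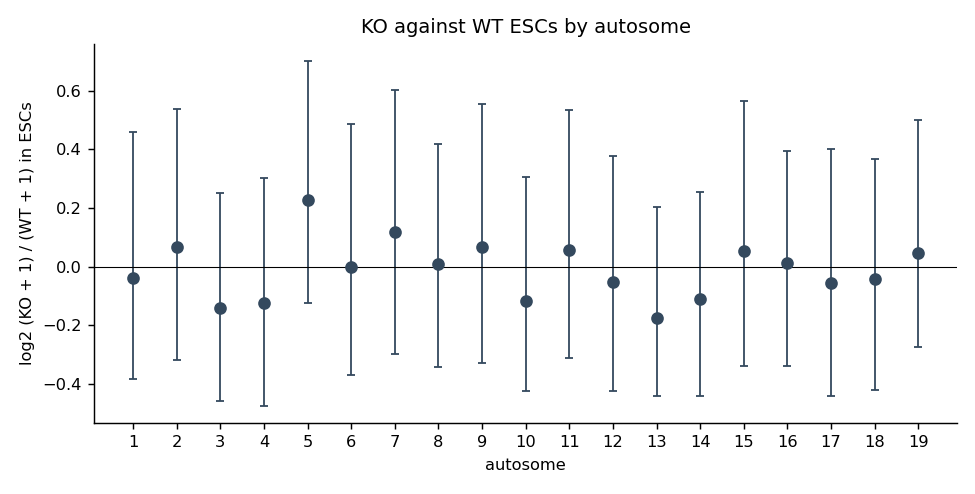
Median log2 fold of KO over WT in ESCs (points) with quartiles (bars) for the genes of each autosome. The medians lie between −0.18 and 0.23, and the quartile ranges of all 19 overlap.

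The ESC difference recurred in EBs more often on the higher side. KO EBs stood 2-fold or more above WT EBs at 1385 of the same 9265 genes (14.9%) and lower at 1136 (12.3%). Of the 985 genes higher in KO ESCs, 527 (53.5%) were also higher in KO EBs, which is 38.1% of the EB list, and 77 were called lower. Of the 378 lower in KO ESCs, 137 (36.2%) were lower in KO EBs, 12.1% of that list, and 54 were called higher. The 2 comparisons use separate libraries but the same lines, so a recurring difference does not separate the genotype from the lines. The filter took the mean of all 4 libraries, so a gene low in both WT libraries could pass through its KO values. Sox18, with a mean of 29.9, stood at 9.34 and 30.9 in ESCs and at 4.68 and 74.6 in EBs. The part of the filter in the overlap was not tested. In KO EBs the interstitial matrix list stood at 2.49 and the elastic fibre list at 2.06, higher as in ESCs, while naive pluripotency genes stood at 0.16.

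A count model on the recovered reads of all 4 libraries, with stage and genotype as terms, tests the KO effect averaged over ESCs and EBs with 1 residual degree of freedom. edgeR's quasi-likelihood test called 0 of the 9265 genes (0%) at a Benjamini-Hochberg adjusted p under 0.05, with 1492 at an unadjusted p under 0.05. DESeq2 called 306 of the same 9265, 240 of them higher and 66 lower in KO. The residual degree of freedom is the difference of the KO effect between ESCs and EBs of the same lines. These p-values therefore do not measure spread between cultures or lines.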

How the data were processed

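Ribosome footprints were sequenced from 1 library each of WT and Mettl3-KO mouse ESCs and EBs. The submitters' processing notes name build mm10 and the tools DESeq, HTSeq 0.6.0, TopHat2 2.0.10, Bowtie and CASAVA 1.8.2; their settings, the annotation version and how strand was treated were not given in the sources used here. For each RefSeq coding sequence the authors deposited a normalised signal, which is the read count divided by 1 factor per library. All values (100%) proved to be whole multiples of their library's smallest step within 0.01, so the reads were recovered, for intervals and for a count test added to the planned comparison.

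Of 27442 coding sequences, 27083 had a symbol and position in the RefSeq table of GRCm38.p6, the same assembly as mm10, and were summed per gene; the other 359 took up to 0.422% of gene reads in any library. Entries that name no gene stayed out: gene reads were 27.9% (WT ESCs), 33.4% (KO ESCs), 31.3% (WT EBs) and 28.4% (KO EBs) of each library's reads. Of the deposited columns 0 matched no sample. Autosomal genes whose 4-library mean reached 25 were compared by log2 of value + 1, a scale that shrinks the folds of low genes. No p-value was computed for KO against WT ESCs, which had 1 library each; ratios of reads have 95% exact binomial (Clopper-Pearson) intervals. Every 28-nt coding window within an exon was searched in both strands of the genome to give the percent copied elsewhere. The count test used edgeR 4.0.16 and DESeq2 1.42.0 in R 4.3.3, with terms for stage and genotype over all genes past the filter, and was tested on simulated data; the rest used Python 3.11.15, numpy 2.4.6, scipy 1.17.1, pandas 2.3.3 and numba 0.67.0.

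The members, the 51 gene lists and the naming rule were chosen with earlier results of these data known. The rule takes Mettl3, the 10 highest and 10 lowest genes by fold with a value of at least 100 in an ESC library, the 6 largest gains and 6 largest losses (unnamed gene models skipped), and up to 4 members of a list, its 2 highest and 2 lowest. Other members named were chosen after their values were seen. Some genes that the rule takes are not reported here. Alternatives were other pseudocounts, filters, scalings and tools, genes with 1 RefSeq entry and, added after the data were seen, genes with under 10% of windows copied and a counting interval wholly past 2-fold.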

Additional observations from a re-analysis of the deposited data

Results flagged for a closer look

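Several groups stood on opposite sides of 0 in ESCs and EBs; the difference between the stages was not tested, since each stage had 1 library per genotype. The 15 YAP and SRF targets had a median log2 fold of KO over WT of 0.85 in ESCs and −0.75 in EBs, and the 15 interferon response genes 0.71 and −0.32. In the other direction, the 56 cytoplasmic ribosomal proteins had −0.61 in ESCs and 0.55 in EBs. The 18 replication-dependent histones had −0.39 and 0.58, and the 23 listed ATF4 targets and amino acid genes −0.36 and 0.86. Among single genes, Cdx1 had a log2 fold of −2.80 in ESCs and 3.19 in EBs, the latter from 1 read in WT and 15 in KO, a ratio with an interval of 2.21 to 605.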

How the results depend on the processing

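The number of genes at least 2-fold apart depended on the filter: 500 were higher and 181 lower with a mean of at least 100, and 2005 higher and 960 lower without a filter. Counting only genes whose interval lay wholly past 2-fold, an alternative chosen after seeing the data, gave 536 and 187. Scaling both libraries to the same total gave 1177 and 284, which moved the share of higher among called genes from 72.3% to 80.6%; it turned the sign of 6 of 51 list medians, all within 0.09 of 0, and of 8 of 19 autosome medians. Without a filter Spearman's rho of the log2 fold was −0.132 with mean count and 0.00669 with coding length, and over genes with under 10% of windows copied, also chosen after seeing the data, it was −0.00994 with coding length; the cause was not tested. edgeR without a filter called 264 of 13678 genes for the effect over both stages, and DESeq2 306, at an adjusted p under 0.05. The sign of a list median turned for 0 lists with pseudocounts of 0.5 and 5 or with genes of 1 RefSeq entry, for 1 with the filter on the ESC mean, 3 with a mean of at least 100 (basement membrane, polycomb and imprinted), 4 without a filter, 3 when centred and 5 with under 10% copied; all of these medians lay within 0.20 of 0. No library could be left out, since each group had 1. No paired analysis was possible because the labels give no replicate numbers; the count model compares KO with WT within each stage. The read depth limits low genes, and near-identical copies limit ribosomal proteins and histones.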
